A study of Mus musculus with 10 samples.

Results

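Chromatin from ZHBTc4 mouse embryonic stem (ES) cells was sequenced after immunoprecipitation (ChIP) with an antibody against Pontin and, as the control, with an antibody against GFP, and the reads were compared at the promoters of active genes. A promoter was taken as 1 kb either side of the gene start of a protein-coding autosomal gene in the Ensembl NCBIM37 annotation, and a gene as active at a mean of at least 50 CPM, read counts per 1000000, in the shRNA control mRNA libraries. There were 4145 such promoters among the 21362 protein-coding autosomal promoters with a CPM, and 8921 promoters of low-expression genes, under 1 CPM, served for comparison. In ZHBTc4 cells Oct4 can be depleted by tetracycline, and the study names none for the cells of the ChIP or shRNA control libraries. No treatment is named for the cells of the 2 ChIP libraries, whereas those of the 2 shRNA control libraries had been infected with pLKO control lentivirus for 4 days. The study's lentivirus methods include selection of infected cells with puromycin. Responses to loss of Pontin came from Pontinf/f; CreER ES cells, another line, with 1 mRNA library each before (WT) and 3 or 4 days after 4-hydroxy tamoxifen (OHT 3D and OHT 4D). In these cells OHT switches on Cre recombinase and Pontin is deleted. Each antibody gave 1 library, so no difference between them has a replicate check and no p-value is given. Antibody and library cannot be told apart, and GFP ChIP is not input DNA.

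Pontin, encoded by Ruvbl1, is an ATPase that works with its partner Reptin, encoded by Ruvbl2. Both are subunits of the INO80 and SRCAP chromatin remodelling complexes, of the TIP60 histone acetyltransferase complex and of the R2TP chaperone. INO80, SRCAP and TIP60 act on nucleosomes beside gene starts, among them those that carry the histone variant H2A.Z. Promoters of active genes in mammals are mostly rich in G, C and CpG, with a stretch poor in nucleosomes just before the start.

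Promoters with higher and with lower Pontin over GFP show how unlike the members were in sequence. The 250 bases before the start are printed for the pair with the highest and the pair with the lowest Pontin over GFP, among members that had at least 20 GFP reads, no other protein-coding gene start in the region and no annotated exon in these bases. Mrps10, with 118 Pontin and 20 GFP reads, encodes a protein of the mitochondrial ribosome, and Lsm14a, with 113 and 21, a protein of cytoplasmic RNA granules. Their log2 ratios of Pontin over GFP were 1.18 and 1.05, near the upper quartile of all members, 1.08. The limit of 20 GFP reads leaves out higher ratios, up to 3.89. Pramef12, with 18 and 20, belongs to a family of germ cell and early embryo genes, and Prpsap1, with 30 and 28, encodes a partner of the enzyme that makes phosphoribosyl pyrophosphate. Capitals mark matches to the letters searched, which were an ETS site in Mrps10, GC boxes in Lsm14a and a CCAAT box in Prpsap1. The sequences are from NCBIM37 and run 5′ to 3′ toward the start.
Mrps10, chr17:47505586-47505835, plus strand: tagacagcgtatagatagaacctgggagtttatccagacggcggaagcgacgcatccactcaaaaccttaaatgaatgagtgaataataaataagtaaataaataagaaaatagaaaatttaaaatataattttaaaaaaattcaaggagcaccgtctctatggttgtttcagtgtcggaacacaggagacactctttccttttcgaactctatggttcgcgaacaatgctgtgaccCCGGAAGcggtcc
Lsm14a, chr7:35174560-35174809, minus strand: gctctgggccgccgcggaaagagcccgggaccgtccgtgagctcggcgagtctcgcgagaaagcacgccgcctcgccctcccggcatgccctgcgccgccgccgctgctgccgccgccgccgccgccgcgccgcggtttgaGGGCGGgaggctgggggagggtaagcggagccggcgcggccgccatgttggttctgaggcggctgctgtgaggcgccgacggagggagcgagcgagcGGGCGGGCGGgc
Pramef12, chr4:143998368-143998617, minus strand: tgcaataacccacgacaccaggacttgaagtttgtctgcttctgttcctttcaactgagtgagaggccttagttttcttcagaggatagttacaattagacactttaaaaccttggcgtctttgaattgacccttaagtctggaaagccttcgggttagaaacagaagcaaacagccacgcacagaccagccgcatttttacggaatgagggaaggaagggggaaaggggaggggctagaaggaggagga
Prpsap1, chr11:116355517-116355766, minus strand: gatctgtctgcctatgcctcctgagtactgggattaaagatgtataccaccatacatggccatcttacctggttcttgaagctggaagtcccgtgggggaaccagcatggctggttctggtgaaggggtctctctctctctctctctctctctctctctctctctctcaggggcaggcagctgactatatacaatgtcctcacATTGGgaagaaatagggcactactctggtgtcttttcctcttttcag
GC content over these 250 bases was 38.8% in Mrps10 and 78.4% in Lsm14a. The other pair had 47.2% in Pramef12 and 50% in Prpsap1. CpG in these bases numbered 12 in Mrps10 and 42 in Lsm14a, against 6 in Pramef12 and 1 in Prpsap1. Over the whole region in which reads were counted, GC content was 47.1% in Mrps10 and 60.2% in Lsm14a. There it was 44.6% in Pramef12 and 50.6% in Prpsap1. CpG in the whole region numbered 67 in Mrps10 and 177 in Lsm14a, against 32 in Pramef12 and 29 in Prpsap1. The starts are those annotated, and whether transcription begins there in these cells was not tested.

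After 1 read was kept per position and strand, 36086569 Pontin and 13875540 GFP reads remained. The shRNA control libraries held 21245831 and 23601776 reads on genes. All 10 ES cell markers were members, from 217 to 1118 CPM, whereas the highest of 15 fibroblast markers had 30.4 CPM, and the trophectoderm and primitive endoderm markers reached at most 8.04 CPM. Just inside the limit of 50 CPM were Clasrp, Dnajc19 and Usp54, with log2 ratios of Pontin over GFP of -0.19, 1.58 and -0.78. Just outside were Exosc9, Btg2 and Rassf3, with 1.37, -0.61 and 0.97. Of the members, 739 had another protein-coding gene start in the region, so that the same reads counted for more than 1 gene.

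More Pontin than GFP reads lay at the promoters of active genes. The median member had 65 Pontin and 16 GFP reads, which are 1.80 and 1.15 RPM, that is reads per 1000000 reads of the library. The median log2 ratio was 0.68, or 1.60-fold, with quartiles of 0.28 and 1.08 over the 4124 members that had reads in both libraries. At 21 members 1 library had no read. Low-expression genes had medians of 0.887 Pontin and 0.793 GFP RPM and a median log2 ratio of 0.17. Summed over all regions, the log2 ratio was 0.65 (95% interval 0.63 to 0.67) for active genes and 0.19 (0.17 to 0.20) for low-expression genes, so the intervals did not overlap. Intervals cover counting error only, with the mates of a pair counted as 1 observation.

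The ratio of a single promoter was much less precise. Of the members, 1204 (29.2%) were at or above 2-fold, against 22% of all promoters with reads in both libraries. A 95% interval wholly above equal levels was found at 697 members (16.8%), against 9.05% of all promoters. One wholly below was found at 2 members (0.048%), against 0.487% of all promoters. The SD of the log2 ratio over members was 0.636, and counting alone, with mates taken as pairs, would give 0.616. Pontin reads varied more than that among members, with a variance of 4.50 times the mean, where pairs alone give 2. GFP reads had a variance of 2.26 times the mean. Therefore most of the differences in ratio between single members were of the size of the counting error, and high ratios went with few GFP reads (r = -0.75 over 4124 members, with GFP in both measures). Among the 1094 members with at least 20 GFP reads, which this limit selects for high GFP, the median log2 ratio was 0.16 and 6 were at or above 2-fold (0.548%), against 0.268% of all promoters past the same limit. Low-expression promoters past it had a median of -0.46.

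**Figure D1:**
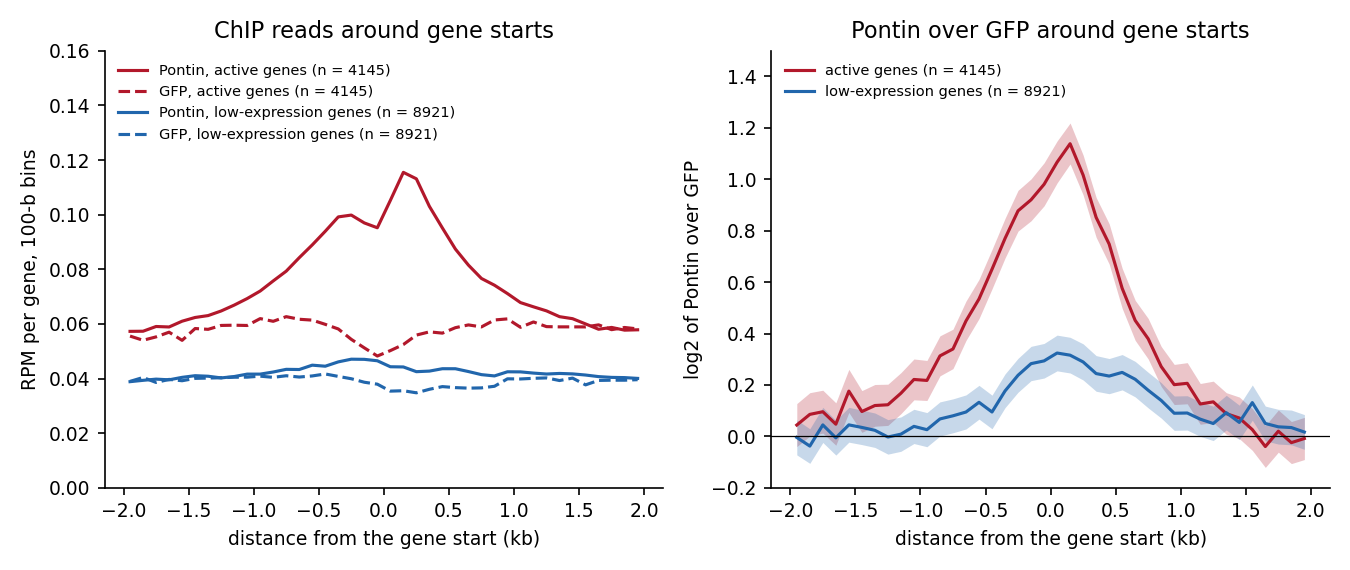
RPM per gene (left) and log2 of Pontin over GFP (right) in 100-b bins within 2 kb of the gene start, for 4145 active (red) and 8921 low-expression genes (blue), with Pontin as solid and GFP as dashed lines and 95% counting intervals as bands. Pontin at active genes has a peak after the start and a shoulder before it, while GFP has its lowest value just before the start.

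Pontin reads were concentrated close to the start. The highest Pontin level at active genes was 0.115 RPM per gene, from 100 to 200 b after the start, which is 1.97 times the level of 0.0586 at 1.5 to 2 kb. Before the start a lower peak of 0.0998 lay at -300 to -200 b, and between them Pontin dipped to 0.0952 at -100 to 0 b. GFP had its lowest level, 0.0482, in that same bin, where it was 0.848 times its level at 1.5 to 2 kb. The plot of reads around gene starts therefore shows a peak of Pontin together with a dip of GFP, and both enter the ratio. The log2 ratio reached 1.14 (1.06 to 1.22) at 100 to 200 b and was 0.04 at 1.5 to 2 kb, so the libraries were nearly level away from the start. Over 500 b it was 0.84 (0.80 to 0.87) upstream and 0.97 (0.93 to 1.00) downstream. At low-expression genes the highest bin had 0.32 (0.25 to 0.39).

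At 717 members a gene on the opposite strand also started in the region. Their upstream and downstream sides were close to each other, with log2 ratios of 1.02 (0.94 to 1.11) and 1.03 (0.95 to 1.11). Where both genes of such a pair are members, the same reads can count upstream for a gene and downstream for its partner. The closeness of the sides is therefore partly built in, and these intervals count such reads more than once. At the 3406 members without another start they were 0.79 (0.76 to 0.83) and 0.95 (0.92 to 0.99), so the downstream side was higher there by more than the counting intervals. The median log2 ratio over the whole region was 0.74 with an opposite start and 0.67 without any other start.

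**Figure D2:**
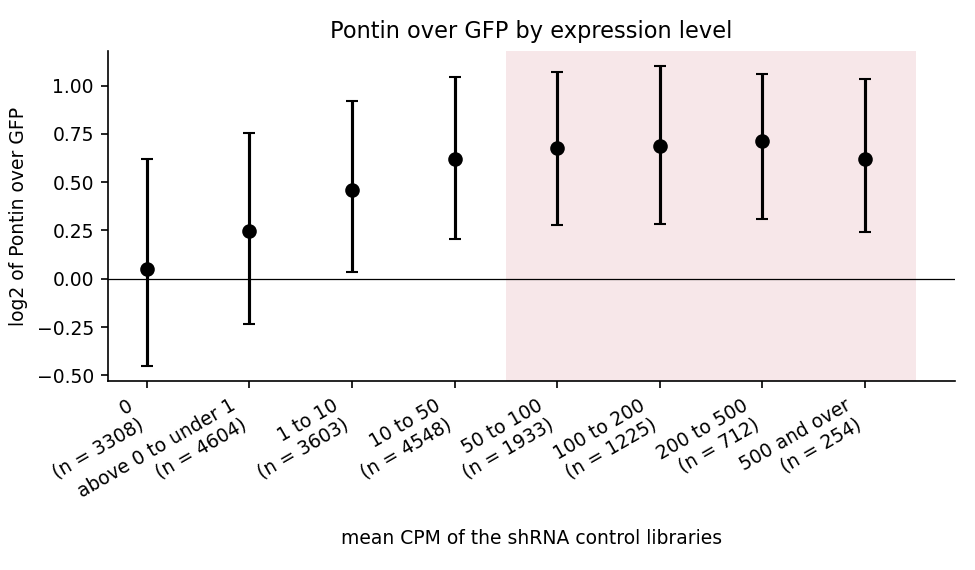
Median log2 of Pontin over GFP (points) with quartiles (bars) for promoters grouped by the mean CPM of the shRNA control libraries, with the active genes shaded. The medians go from 0.05 at 0 CPM to 0.68 at 50 to 100 CPM and lie between 0.62 and 0.71 across the active genes.

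Pontin over GFP was higher at each higher level of expression up to the limit for active genes, and did not go up steadily within them. Genes with 0 CPM had a median log2 ratio of 0.05, those above 0 and under 1 CPM 0.25, those of 1 to 10 CPM 0.46 and those of 10 to 50 CPM 0.62. Within the members the medians were 0.68 at 50 to 100 CPM, 0.69 at 100 to 200, 0.71 at 200 to 500 and 0.62 at 500 and over. Over 4124 members the correlation of the log2 ratio with CPM was r = -0.0067 and rho = 0.0060, and genes are not independent replicates. Eef1a1, which encodes the elongation factor that brings tRNA to the ribosome, had the highest mean CPM of all members, and its 48 Pontin and 16 GFP reads gave a log2 ratio of 0.21. Hsp90ab1, a chaperone gene and the next in CPM, had 56 and 27 reads and a log2 ratio of -0.33. Pkm2, Ncl and Hsp90aa1, the other genes among the 5 highest, had log2 ratios of 0.52, 0.45 and 0.73.

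**Figure D3:**
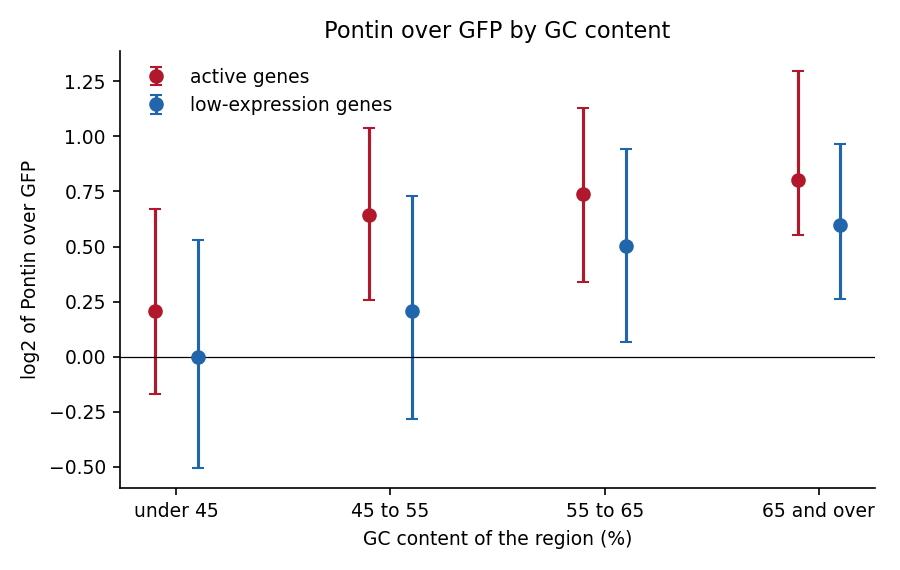
Median log2 of Pontin over GFP (points) with quartiles (bars) by GC content of the region, for active (red) and low-expression genes (blue). Active genes are higher in every range, and the medians of both sets are higher at higher GC content.

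Active promoters were richer in G and C, with a median GC content of 54.3% and 99 CpG, against 46.1% and 23 at low-expression genes. Between 45 and 55% GC the median log2 ratio was 0.64 for 2108 active and 0.21 for 3472 low-expression promoters. Between 55 and 65% it was 0.74 and 0.50, and at 65% and over 0.80 and 0.60. Under 45%, where only 143 members had a ratio, it was 0.21 for active genes and -0.00041 for low-expression genes. A difference between active and low-expression genes was thus present in each range. It was 0.21 under 45%, 0.44 at 45 to 55%, 0.23 at 55 to 65% and 0.21 at 65% and over. The part of GC content in the difference that is left within a range was not tested.

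Letters that transcription factors are known to bind were searched on both strands from 250 b before to 50 b after the start. The GC box of SP1 (GGGCGG) was found in 68.3% of active promoters, against 18.5% at low-expression genes and 43.8% of all promoters. The ETS site (CCGGAAG) was in 21.4%, against 2.78% and 10.9%, and the YY1 site (AAGATGGCG) in 4.34%, against 0.370% and 1.84%. The TATA box (TATAAA) went the other way, in 6.22% of active and 22.2% of low-expression promoters and 13.5% of all. Within the members these letters came with little difference in Pontin over GFP. The median log2 ratio was 0.70 with a GC box and 0.64 without, 0.67 with an ETS site and 0.68 without, and 0.59 with a TATA box and 0.69 without. The largest of the 9 differences was that of the YY1 site, 0.80 in 180 members against 0.67 in the rest. YY1 is itself a subunit of INO80. The octamer (ATGCAAAT), to which Oct4 and its relatives bind, was in 37 members (0.893%), against 2.34% of low-expression and 1.73% of all promoters, and the members with it had a median log2 ratio of 0.62. Matches are a description and no measure of binding.

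**Figure D4:**
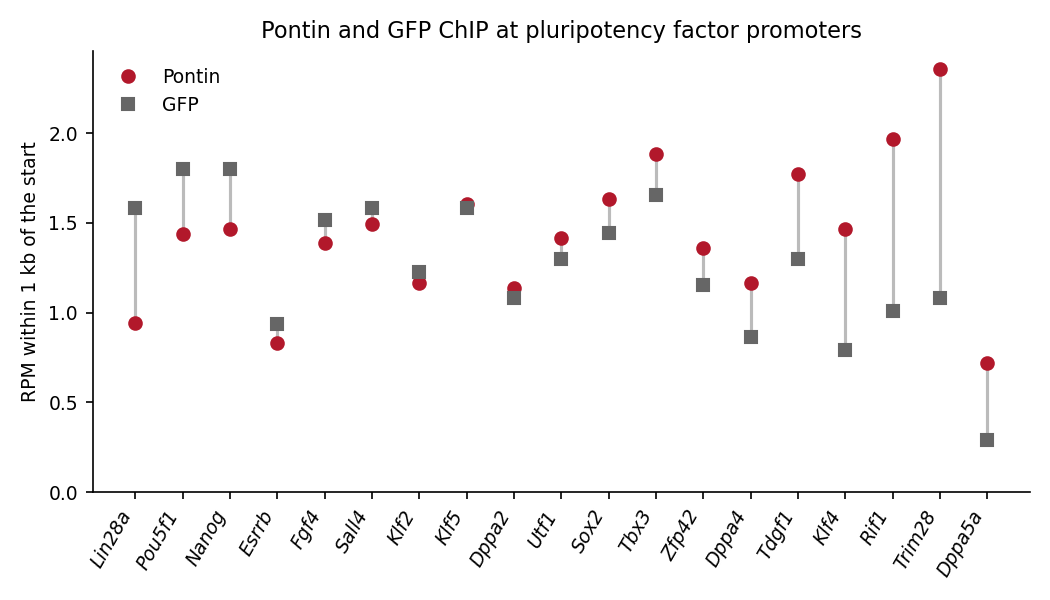
Pontin (red circles) and GFP (grey squares) RPM within 1 kb of the start of each of 19 pluripotency factor genes, in order of the log2 ratio. Pontin was below GFP at 7 genes (36.8%, against 12.0% of all members and 26.0% of all promoters), Nanog and Pou5f1 among them, and at least 2-fold above it at Trim28 and Dppa5a.

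Promoters of pluripotency factors had less Pontin over GFP than most active promoters. The 19 members of this list had a median log2 ratio of 0.12, against 0.68 over all members, and 2 of them (10.5%) were at or above 2-fold, against 29.2% of all members and 22% of all promoters. Summed over the list, the log2 ratio was 0.18 (-0.07 to 0.45), an interval that lies below the 0.65 of all members and includes the 0.19 of low-expression genes. Both libraries took part, since the median of the list was 1.44 Pontin and 1.30 GFP RPM. The list had a median GC content of 58.1%, above that of all members, but a median of 79 CpG, below their 99. Its sum was between 0.13 and 0.21 under each other setting of reads, scaling and region that was tried.

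Pou5f1, the gene of Oct4, had 52 Pontin and 25 GFP reads, or 1.44 and 1.80 RPM, and a log2 ratio of -0.32 (-1.30 to 0.86). Nanog, a homeobox factor of the pluripotent state, had 53 and 25 reads and -0.29 (-1.30 to 0.86), and Sox2, the partner of Oct4 on DNA, had 59 and 20 reads and 0.18 (-0.87 to 1.40). At each of these genes the interval includes equal levels of Pontin and GFP. Lin28a, which encodes an RNA-binding protein that blocks let-7 maturation, was lowest with 34 and 22 reads and -0.75 (-1.93 to 0.49). Esrrb, an orphan nuclear receptor gene, had 30 and 13 reads and -0.17, and Fgf4, the gene of a growth factor that ES cells secrete, had 50 and 21 reads and -0.13. At the other end was Klf4 with 53 and 11 reads and 0.89 (-0.58 to 2.31). Rif1 had 71 and 14 reads and 0.96 (-0.20 to 2.40), and Trim28 had 85 and 15 reads and 1.12 (-0.10 to 2.32). At none of the 19 genes did the interval exclude equal levels. Rif1 encodes a protein of telomeres and replication timing, and Trim28 a corepressor of zinc finger proteins. Dppa5a had the highest log2 ratio, 1.32 (-0.82 to 4.51), with only 26 and 4 reads.

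Ptch1, Tpm1, Gapdh and Mycn, which the study also followed, had log2 ratios above the median of all members, 0.68. Ptch1, the Hedgehog receptor gene, had 65 Pontin and 15 GFP reads and a log2 ratio of 0.74, and Tpm1, a tropomyosin gene, had 53 and 11 reads and 0.89. Gapdh, a glycolytic enzyme gene, had 79 and 15 reads and 1.02 (-0.17 to 2.25). Mycn, a gene of the Myc family, had 72 and 7 reads and 1.98 (0.31 to 3.74). For Mycn alone of these 4 did the interval lie above equal levels. The study had used Mycn as an Oct4 target that does not depend on Pontin. Its ChIP with PCR found Pontin at the Oct4-binding region of Rif1 but not at that of Mycn. Those assays measured an Oct4-binding region, and the reads here are over 1 kb either side of the gene start.

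**Figure D5:**
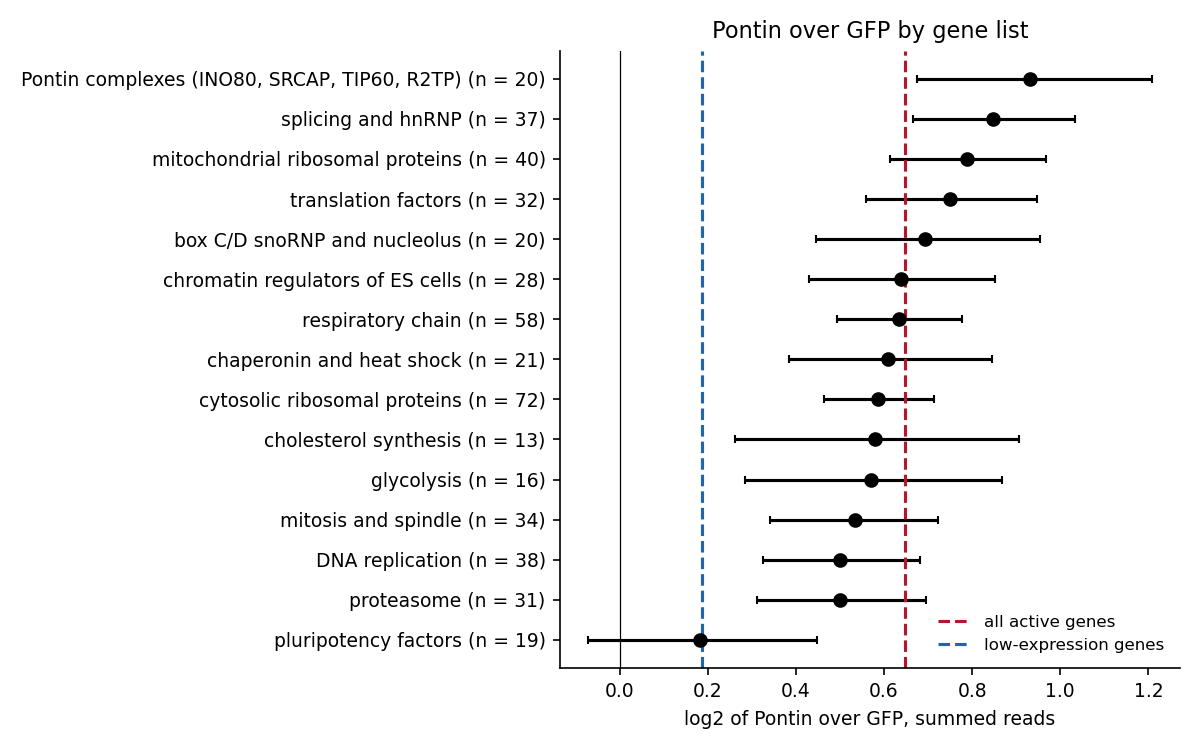
Log2 of Pontin over GFP from reads summed over the members of 15 gene lists, with marker lists and the genes the study followed left out, with 95% counting intervals, beside all active genes (red line) and low-expression genes (blue line). Of those plotted, the pluripotency list is lowest and lies below the line of all active genes, and the list of Pontin complexes is highest.

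The genes of the complexes that hold Pontin were at the other end. Their 20 members had a median log2 ratio of 0.94 and a summed value of 0.93 (0.67 to 1.21), none was below 0, against 12.0% of all members and 26.0% of all promoters, and 9 (45%) were at or above 2-fold, against 29.2% of all members and 22% of all promoters. Ruvbl1 itself had 58 Pontin and 5 GFP reads and a log2 ratio of 2.16 (0.50 to 5.59), and Ruvbl2 had 67 and 10 reads and 1.37 (0.02 to 3.10). Ino80, the motor subunit of INO80, had 111 and 12 reads and 1.83 (0.63 to 3.35). Uchl5, a deubiquitinase gene of INO80 and the proteasome, was highest at 3.29 (0.72 to 8.68), with 51 and 2 reads. Ep400, the motor subunit of TIP60, had 72 and 24 reads and 0.21 (-0.77 to 1.28), and Znhit6 was lowest with 45 and 17 reads and 0.03. The highest values of this list thus came with few GFP reads, and the interval of its sum began just above the 0.65 of all members.

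Housekeeping lists lay between these. The 37 genes of splicing factors and hnRNPs had a summed log2 ratio of 0.85 (0.67 to 1.03), with 13 (35.1%) at or above 2-fold, which is near the 29.2% of all members. Among them Hnrnpd had 105 Pontin and 11 GFP reads and 1.88 (0.52 to 3.25), U2af2, which encodes the protein that recognises the polypyrimidine tract, had 105 and 15 reads and 1.43 (0.24 to 2.61), and Hnrnpm had 33 and 22 reads and -0.79 (-2.04 to 0.41). The 40 genes of mitochondrial ribosomal proteins had 0.79 (0.61 to 0.97), from Mrpl28 with 36 and 26 reads and -0.91 to Mrpl39 with 76 and 2 reads and 3.87. Translation factors (32 genes) had 0.75, genes of box C/D snoRNPs and the nucleolus (20) 0.69, chromatin regulators of ES cells (28) 0.64, the respiratory chain (58) 0.63, and chaperonins and heat shock proteins (21) 0.61. Cytosolic ribosomal proteins (72 genes) had 0.59 (0.46 to 0.71), mitosis and spindle (34) 0.53, and DNA replication (38) and the proteasome (31) both 0.50. The intervals of all these lists but splicing included the 0.65 of all members, and that of splicing began just above it.

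Among the 881 members with at least 20 GFP reads and no other start, the 10 highest log2 ratios ran from 0.92 at Rbm26 to 1.18 (0.20 to 2.31) at Mrps10. Besides these they were Lsm14a, Psma5, a proteasome subunit gene, Sart3, a U6 snRNP recycling factor gene, Xpo4, a nuclear export receptor gene, Rpl5, Cstf2t, Ubap2 and Scyl2, with 100 to 123 Pontin reads each. The 10 lowest ran from -1.53 (-3.01 to -0.08) at Pramef12 to -0.89 at Leng8. Next to Pramef12 were Prpsap1 at -1.28 (-2.43 to -0.12), Gm5506, Sfrp1, a secreted Wnt antagonist gene, and Psmd2, a proteasome subunit gene at -0.99 (-2.01 to 0.17). Gm5506 had 550 and 347 CPM in the shRNA control libraries but 2.46 CPM in WT, and the cause was not tested. Only at Pramef12 and Prpsap1, of all members, did the interval lie below equal levels.

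Some members stood out in Pontin reads, and were chosen after their values were seen. Hjurp, which encodes the chaperone of the centromeric histone CENP-A, had the most Pontin reads, 321, but also 97 GFP reads, and a log2 ratio of 0.35 (-0.12 to 0.85). Mll1, a histone H3 lysine methyltransferase gene, had 181 and 19 reads and 1.87 (0.85 to 2.90). Ddx17, an RNA helicase gene, had 147 and 15 reads and 1.91 (0.78 to 3.09), and Pcbp1, a gene of a poly(C)-binding protein, had 138 and 13 reads and 2.03 (0.95 to 3.64). At Mll1, Ddx17 and Pcbp1 the interval lay above the median of all members.

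By chromosome, the median log2 ratio of the members ran from 0.58 on chromosome 17 to 0.83 on chromosome 16. The 128 members on chromosome 16 had fewer reads in both libraries, with medians of 1.43 Pontin and 0.865 GFP RPM. Elsewhere the medians were at least 1.75 for Pontin and 1.01 for GFP. Psmd2, Dppa2, Dppa4 and Mrpl39 are among the members on this chromosome, and the cause of its low level was not tested.

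To see whether the genes with most Pontin responded most to its loss, the members were followed in the OHT libraries. A gene was called at a log2-fold-change beyond 0.58 against WT, after 1 was added to the CPM. Ruvbl1 had 198 CPM in WT, 33.3 CPM at OHT 3D and 50.9 CPM after 4 days. Of the members, 110 (2.65%) were down and 66 (1.59%) up at OHT 3D, against 5.88% and 6.01% of all genes above 1 CPM in WT, either OHT library or the Tc 2D library that was scaled with them. At OHT 4D 391 (9.43%) were down and 50 (1.21%) up, against 8.89% and 6.48%. OHT 3D and OHT 4D share the WT library, and with 1 library each the calls have no replicate check.

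The 4124 members with a ratio were then divided into 3 equal parts by their ChIP log2 ratio. The parts differed mainly in GFP, with medians of 1.51 RPM in the lowest, 1.15 in the middle and 0.79 in the highest part. At OHT 3D, 49 of the 1375 lowest (3.56%), 35 of the middle part (2.55%) and 26 of the 1374 highest (1.89%) were down, and 33, 14 and 19 were up. The lowest part thus had the most calls in both directions. With the region from 2.5 kb before to 500 b after the start, 46 of the lowest and 33 of the highest part were down. After 4 days the numbers down were 130 (9.45%), 119 (8.65%) and 135 (9.83%), and those up 20, 16 and 14. Genes are not independent replicates, and whether the shares differ between the parts was not tested. Divided by Pontin reads alone, a division chosen after the data were seen, 51 of the lowest and 20 of the highest part were down at OHT 3D, and 34 and 12 were up. At OHT 4D 146 and 116 were down, and 27 and 11 were up. The median CPM was 101 in the lowest and 111 in the highest of these parts. The median log2 ratio was 0.54 for genes down and 0.46 for genes up at OHT 3D, 0.72 for genes down and 0.67 for genes up at OHT 4D, and 0.68 for genes called at neither.

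At OHT 3D the lists with the most falls were not those with the highest Pontin over GFP. Beside the counts that follow, 2.65% of all members and 5.88% of all genes were down at OHT 3D, and 9.43% and 8.89% after 4 days. Of 13 members of the cholesterol synthesis list, 10 were down at OHT 3D and 7 at OHT 4D, and their summed log2 ratio of Pontin over GFP was 0.58 (0.26 to 0.91). Insig1, a sterol-regulated gene, had log2-fold-changes of -1.18 and -0.98 and 51 Pontin and 12 GFP reads, a log2 ratio of 0.71. Lss, the lanosterol synthase gene, had the highest log2 ratio of the list, 1.58, with log2-fold-changes of -0.57 and -0.74. Of 16 glycolysis genes 7 were down at OHT 3D and 2 after 4 days, the latter near the share of all members, with a summed log2 ratio of 0.57 (0.28 to 0.87). Ldhb, a lactate dehydrogenase gene, had log2-fold-changes of -1.63 and -0.81 with 74 and 21 reads, and Pfkp, a phosphofructokinase gene, -1.53 and -1.16 with 65 and 10 reads. Of 20 genes of Pontin complexes, Ruvbl1 alone was down at OHT 3D. At OHT 4D Ruvbl1, Ep400 and Mbtd1 were down, a larger share than in glycolysis and a smaller one than in cholesterol synthesis. Of the 19 pluripotency factors none was called at OHT 3D, and at OHT 4D Rif1 and Fgf4 were down, with log2-fold-changes of -0.79 and -0.62, and Tbx3 was up at 0.97, so that the 2 falls among 19 genes were also near the share of all members. None of the 72 cytosolic ribosomal protein genes was called at either time point.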

How the data were processed

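The authors trimmed the reads with cutadapt and aligned them to NCBIM37, with TopHat for mRNA and Bowtie2 for ChIP. They deposited mRNA values as CPM after HTSeq counting and TMM scaling in edgeR, in 2 tables scaled separately. Each CPM was a whole number of reads within 0.01 read for 100% of the values. They deposited ChIP reads 1 per line with a mapping quality score, of at least 6 for Pontin and 5 for GFP. Versions are not given in the sources used here.

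The Pontin file held 40729076 reads and the GFP file 17185883. From them 1 read was kept per 5′ position and strand, which removed 11.4% and 19.3%, and reads were counted by midpoint in each region, per 1000000 of the reads kept (RPM). Exact binomial (Clopper-Pearson) 95% intervals were computed on reads divided by 2, since mates share a fragment. Gene starts, GC content and sequences came from the NCBIM37 genome and the Ensembl NCBIM37 annotation in its GENCODE release, and starts are those annotated, not measured. Python 3.11.15, numpy 2.4.6, pandas 2.3.3, scipy 1.17.1 and matplotlib 3.10.9 were used. The arithmetic of the ratio was checked on simulated reads with a known change. Those reads were drawn independently, without the mate pairs and extra spread of the real reads, so precision was not checked. The linc1253 knockdown libraries were not used, and the Tc 2D library (Oct4-depleted) entered only the filter on genes above 1 CPM.

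Members, gene lists and motifs were chosen with earlier results of these data known. Named genes were those the study followed, pluripotency factors, the 10 highest and 10 lowest ratios among members with at least 20 GFP reads and no other start, the highest and lowest of each list, the 5 highest CPM and the 3 genes on each side of the CPM limit. Not every gene so selected is reported, and list members named for their role or response were chosen after their values were seen. Alternatives were other read sets, scalings, regions and limits.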

Additional observations from a re-analysis of the deposited data

How the results depend on the processing

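No paired analysis was possible because the results come from no test and each antibody gave 1 library. The median log2 ratio of active promoters was 0.76 with all reads kept, 0.47 from 2.5 kb before to 500 b after the start, 0.94 within 500 b, 0.16 with at least 20 GFP reads and 0.61 with 1 read added. Active over low-expression promoters came to 0.36 and 0.74 for these 2 regions, 0.62 with at least 20 GFP reads, 0.61 with 1 read added, 0.47 on the plus strand only and 0.46 on the minus strand only. At 45 to 55% GC that difference was 0.34, 0.63, 0.60 and 0.50 in the same order for regions, GFP limit and added read. Members at or above 2-fold numbered 623 and 1879 in these 2 regions, 6 with at least 20 GFP reads, and 2008 and 648 for CPM limits of 20 and 100. The peak of the profile was 1.25 with all reads kept. The median at 500 CPM and over was lower than that at 50 to 100 CPM (-0.06) on the log2 scale and 0.064 above it with at least 20 GFP reads. The difference was -0.13 within 500 b and -0.15 with all reads kept, where intervals from the spread over genes lay below 0. In the main setting that interval was -0.17 to 0.03. Genes are not independent replicates, so these intervals are no test. Without control replicate 1 or 2, the median was 0.68 in both cases, the difference between 0.50 and 0.51 and the count between 1197 and 1209. A log2-fold-change threshold of 1 left 6 down in the lowest and 4 in the highest part at OHT 3D, and 18 and 21 respectively at OHT 4D. A limit of 100 CPM left 21 and 8, and 59 and 66. Of 170 values of gene lists 17 left their main interval, and of 709 of named genes 7, all when the region was changed. These counts include values that could not move. List sums were computed without the added read and without the limit of 20 GFP reads, and named genes without that limit. Mates counted as 1 fragment, added after seeing the data, gave a median of 0.69. The GFP depth, 16 reads per median member, limits each single ratio.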
